A study of Homo sapiens with 9 samples.

Results

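The addition of 20 µM evernic acid (EA) to a high dose of temozolomide (TMZ) was read from 5 of the 9 RNA libraries of the series, all made from the human glioblastoma line U-87. These were 1 library of cells given EA at 20 µM with TMZ at 580 µM (EA20TMZ580), 1 library of cells given TMZ alone at 600 µM (TMZ600) and 3 libraries of untreated cells, which gave the baseline and the spread. All cells came from the same line and were harvested after 24 h. Of the 159067 RefSeq transcripts in the count table, 4786 had a count in at least 1 of the 5 libraries, and the 621 whose counts averaged 10 or more across the 5 were compared. The labels do not say whether the 3 controls were separate cultures, so the p-values below measure the spread between these libraries, which may be technical.

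TMZ is an alkylating agent that methylates DNA bases and is the standard drug for glioblastoma. EA is a small phenolic acid (a depside) made by lichens such as Evernia prunastri. Setting EA20TMZ580 beside TMZ600 asks how the transcripts of cells under a high dose of TMZ differ when EA is also present. The TMZ doses differed by 20 µM, which is 3.33% of 600 µM, and no library received EA at 20 µM without TMZ, so the added EA and the slightly lower TMZ dose cannot be told apart. With 1 library on each side, the test assumes that each treated library varies like the controls, and it compares these libraries rather than the conditions.

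The 5 libraries held between 259753 and 330759 counts, of which 98.1 to 98.6% fell on the tested transcripts. Levels are given as scaled CPM, the counts of a transcript relative to all counts on tested transcripts, in the usual unit of CPM and after TMM normalisation. They are relative to the rest of a library, so fewer cells with a transcript and less of it in each cell cannot be told apart. Of 14 marker genes of glioblastoma lines, nestin (NES) was the only one with 10 or more counts in any of the 5 libraries, and VIM, GFAP, EGFR and CD44 were listed at 0 in each of them. The labelled cell type could thus hardly be checked. Of 79 genes of ribosomal proteins, a family that every cell uses, 68 were at 0 as well, and so were 19 of 22 tubulins. How reads shared between transcripts were counted is not given in the sources used here, so a 0 in this table does not show that a gene was silent. The 14 markers of neurons, microglia and oligodendrocytes and the 5 of fibroblasts were listed at 0 in all 5 libraries, and the 4 endothelial markers had at most 4 counts in a library.

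Of the 621 transcripts, 31 differed between EA20TMZ580 and TMZ600 at an adjusted p under 0.05 in edgeR's quasi-likelihood test, which is 4.99% of those tested. Higher in EA20TMZ580 were 16 (2.58%), among them the nuclear genes ROCK1, RRAGA, MYDGF and TALDO1 and 6 genes of the mitochondrial genome. Lower were 15 (2.42%), all of them nuclear. Those with a gene name and the lowest p were SOX4, SRCIN1, NDC80, YPEL3-DT and LAMC1. The median log2 fold change over all tested transcripts was -0.03, and 90% of them lay between -1.31 and 1.03. An unadjusted p under 0.05 was found for 92 transcripts (14.8%). Transcripts with a noncoding RefSeq accession, some of them from protein-coding genes, made up 197 of those tested and 4 of those called.

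**Figure D1:**
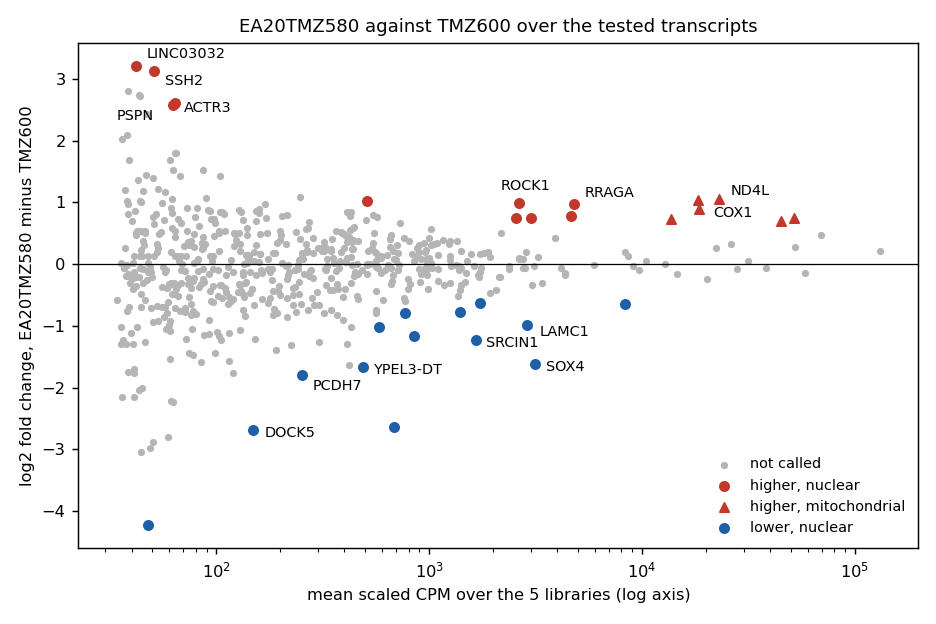
Log2 fold change of EA20TMZ580 over TMZ600 (vertical) against the mean scaled CPM over the 5 libraries (horizontal, log axis) for 618 of the 621 tested transcripts; the 3 with 0 counts in EA20TMZ580 or TMZ600 are not drawn. Red points were called higher, blue points lower and grey points not called, and triangles are the called mitochondrial genes. The largest fold changes among called transcripts lie at low levels, and the called mitochondrial ones lie among the highest levels.

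A second rule asked only for size, without a model: a difference of at least 1 on the log2(CPM + 2) scale that was also larger than the range of the 3 controls. It took in 75 transcripts (12.1%), 27 higher (4.35%) and 48 lower (7.73%). Of these, 17 were also among the 31 called by the test, 14 of the 31 met the test alone, and 58 met the rule of size alone. MYDGF and TALDO1, with modest fold changes at high levels, were in the 14. Of the 58, 48 had under 50 counts in both treated libraries.

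The lowest p belonged to SOX4, a transcription factor of the SRY-box family that acts in embryonic development and is active in many tumours. Its gene lies on chr6:21593751-21598619 (GRCh38, RefSeq annotation). The 3 controls stood at 4150.1, 4836 and 4455 scaled CPM, TMZ600 at 1691 and EA20TMZ580 at 551. Both treated libraries were below every control, and EA20TMZ580 was below TMZ600 by a factor of 3.07 (log2 fold change -1.62 ± 0.19 SE, edgeR adjusted p = 6.22e-08). Against the controls the log2 fold changes were -3.02 in EA20TMZ580 and -1.41 in TMZ600.

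The 250 bases before the start of SOX4 and of ROCK1 are shown because these were the nuclear coding transcripts with the lowest p in each direction. They come from RefSeq, GRCh38.p14, at chr6:21593501-21593750 on the plus strand for SOX4 and at chr18:21111814-21112063 on the minus strand for ROCK1. Capitals mark CCAAT (or ATTGG, its other strand) in SOX4 and the GC box GGGCGG (or CCGCCC) in ROCK1.
SOX4: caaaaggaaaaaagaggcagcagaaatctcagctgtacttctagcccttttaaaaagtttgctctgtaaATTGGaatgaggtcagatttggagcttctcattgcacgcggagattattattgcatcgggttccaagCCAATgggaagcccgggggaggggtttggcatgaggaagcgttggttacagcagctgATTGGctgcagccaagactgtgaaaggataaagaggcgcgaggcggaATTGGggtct
ROCK1: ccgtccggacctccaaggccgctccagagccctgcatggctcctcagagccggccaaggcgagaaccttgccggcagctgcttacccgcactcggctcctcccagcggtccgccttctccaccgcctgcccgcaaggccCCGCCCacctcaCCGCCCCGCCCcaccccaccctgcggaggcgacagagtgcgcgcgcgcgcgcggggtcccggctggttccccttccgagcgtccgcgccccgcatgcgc

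SOX4 held 4 matches to CCAAT and ROCK1 held 3 to the GC box, an overlapping pair included. Promoters were found in RefSeq for 18 of the called nuclear genes, 8 higher and 10 lower, and both strands of the 250 bases before each start were searched. CCAAT stood in 2 of the 8 and 3 of the 10, against 32.0% of all 35116 promoters of that length. The GC box stood in 6 of the 8 and 4 of the 10, against 42.6% of all. The motif CTTTGAT, bound by TCF factors, and the ATF4 motif TGATGNAA stood in none of the 18, against 2.26% and 3.14% of all. NDC80 and MYDGF each held the NRF2 motif TGACNNNGC, found in 10.9% of all promoters. The E-box CACGTG stood in MYDGF and TMEM181 (6.34% of all), the hypoxia motif ACGTG, which every E-box contains, in 3 of the 8 and 3 of the 10 (18.5%), and TATAAA in MRPL54 (10.7%). These are matches of letters and say nothing of binding.

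Of the called transcripts, NDC80 encodes a subunit of the kinetochore complex that holds chromosomes to microtubules at mitosis. It was on opposite sides of the controls in the 2 treated libraries. The controls were at 882, 702 and 782 scaled CPM, TMZ600 was at 1296 and EA20TMZ580 was at 578. The level in EA20TMZ580 was lower than in TMZ600 by a factor of 2.24 (log2 fold change -1.16 ± 0.22 SE, edgeR adjusted p = 0.000168). TMZ600 was above the controls (edgeR adjusted p = 0.002), whereas the difference of EA20TMZ580 from the controls did not pass (log2 fold change -0.45, edgeR adjusted p = 0.0737). NDC80 is at chr18:2571557-2616635.

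SRCIN1, which encodes an inhibitor of SRC kinase signalling, followed the same order. A single one of its 6 RefSeq transcripts (XM_017025169.1, chr17:38530031-38607025) was called. It stood at 1974, 1517 and 1456 scaled CPM in the controls, 2319.6 in TMZ600 and 990.4 in EA20TMZ580. The combination was below TMZ600 by a factor of 2.34 (log2 fold change -1.23 ± 0.20 SE, edgeR adjusted p = 2.36e-05), with TMZ600 above and EA20TMZ580 below every control. Both treated libraries differed from the controls, by -0.74 (EA20TMZ580) and 0.49 (TMZ600) on the log2 scale.

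DOCK5, an exchange factor that activates the small GTPase RAC, was called on 1 of its 2 transcripts. It was counted 48, 40 and 45 times in the controls, 71 times in TMZ600 and 10 times in EA20TMZ580. Its fitted log2 fold change was -2.68 ± 0.57 SE (edgeR adjusted p = 0.000947), and against the controls it was -2.22 in EA20TMZ580 and 0.46 in TMZ600. PA2G4, which encodes a growth regulator that binds the ERBB3 receptor, also lay above every control in TMZ600 (1681 scaled CPM) and below every control in EA20TMZ580 (987), with controls between 1321 and 1515. It was lower in EA20TMZ580 by a factor of 1.70 (edgeR adjusted p = 0.00821), a call that was lost without control 2 (edgeR adjusted p = 0.064) and in 3 other alternatives.

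In all, 6 of the 15 transcripts called lower were above every control in TMZ600 and below every control in EA20TMZ580: NDC80, SRCIN1, DOCK5, PA2G4 and 2 without a gene name, XM_006710381.4 and XM_006711437.4. Among all 621 tested transcripts, 32 (5.15%) had that order. XM_006711437.4 had 1 count in EA20TMZ580 and 23 in TMZ600, a ratio with a 95% counting interval of 3.41 to 865 for TMZ600 over EA20TMZ580. XM_006710381.4 was counted 175 and 330 times. Like that of PA2G4, both of these calls were lost without control 2. The called set was chosen for the difference between these libraries, so part of this order was fixed by the choice.

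LAMC1, the gamma-1 chain of laminin in basement membranes (chr1:183023420-183145592), stood at 2813, 3801 and 4368 scaled CPM in the controls, 2288 in TMZ600 and 1150 in EA20TMZ580. It was below every control in both treated libraries, and in EA20TMZ580 it was lower than in TMZ600 by a factor of 1.99 (log2 fold change -0.99 ± 0.20 SE, edgeR adjusted p = 0.000726). The call was lost in the Wald test of DESeq2 (adjusted p = 0.231) and when transcripts had to average 50 counts (edgeR adjusted p = 0.0593). PCDH7, a protocadherin of the cell surface, was called on 1 of its 3 transcripts. It was counted 76, 94 and 75 times in the controls, 88 in TMZ600 and 23 in EA20TMZ580. TMZ600 was within the range of the controls and EA20TMZ580 below it, with a log2 fold change between the 2 of -1.80 ± 0.48 SE (edgeR adjusted p = 0.013).

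TCF7L1, a factor of the TCF/LEF family that binds Wnt target genes and mostly represses them, was called on 1 of its 2 transcripts (chr2:85133392-85310387). The controls lay close together at 10603, 10711 and 10538 scaled CPM, TMZ600 was at 6042 and EA20TMZ580 at 3879. Both treated libraries were below the controls, by -0.81 (TMZ600) and -1.45 (EA20TMZ580) on the log2 scale. EA20TMZ580 was below TMZ600 by a factor of 1.56 (log2 fold change -0.64 ± 0.16 SE, edgeR adjusted p = 0.0082). Without control 2 the adjusted p in edgeR was 0.0762.

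In the Wnt pathway, secreted ligands bind frizzled receptors and, through beta-catenin, change what TCF/LEF factors do at their target genes. Of 63 Wnt pathway genes on a list that was drawn up with earlier results of these data known, 10 had a count and 5 could be tested. TCF7L1 was lower and none was higher, where 2.42% of all tested transcripts were lower and 2.58% higher, and the median log2 fold change of the 5 was -0.40 against -0.03 over all tested transcripts. The ligand WNT5A had log2 fold change -0.02 (609.5 scaled CPM in EA20TMZ580, 616 in TMZ600, edgeR adjusted p = 0.986), and the receptor FZD7 had -0.40 (225 and 297, edgeR adjusted p = 0.685). The co-repressor TLE6 was counted 2 times in EA20TMZ580, 16 in TMZ600 and 13, 17 and 36 in the controls, and did not pass (edgeR adjusted p = 0.139). The TLE6 transcript was 1 of 9 of that gene and has a noncoding RefSeq accession. The inhibitor DKK4 was counted 11 and 14 times. Against the controls, FZD7 was at -0.98 on the log2 scale in EA20TMZ580 and at -0.58 in TMZ600, below every control in both.

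The other transcripts called lower had varied roles. Among them, TMEM181 was called on 1 of its 5 transcripts. YPEL3-DT, a long noncoding RNA that starts next to YPEL3 in the opposite direction (chr16:30096430-30105456), stood at 441, 588 and 659.5 scaled CPM in the controls, 581 in TMZ600 and 184 in EA20TMZ580. TMZ600 lay within the controls, and EA20TMZ580 was below TMZ600 by a factor of 3.16 (log2 fold change -1.66 ± 0.32 SE, edgeR adjusted p = 0.000226). The strand setting of the counting is not given in the sources used here, so reads of overlapping genes cannot be separated from it. MRPL54, a protein of the mitochondrial ribosome encoded in the nucleus, stood between 640 and 695 in the controls, at 585 in TMZ600 and at 287 in EA20TMZ580 (edgeR adjusted p = 0.0117). It did not pass in the Wald test of DESeq2 (adjusted p = 0.0972) or without a filter on low counts (edgeR adjusted p = 0.0657). TMEM181, a membrane protein, had the smallest change of all 31 (log2 fold change -0.63, edgeR adjusted p = 0.0355), and 6 of 10 alternatives lost the call, with an edgeR adjusted p of 0.155 without control 2.

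SLC7A14, of the family of cationic amino acid transporters, had 0 counts in EA20TMZ580. It was counted 14 times in TMZ600 and 12, 29 and 23 times in the controls (edgeR adjusted p = 0.0251, and 0.0558 without control 2). Taking 3 counts in the library as the most that a count of 0 allows, it was at least 4.26-fold lower in EA20TMZ580 than in TMZ600 and at least 7.63-fold lower than the control mean, with the counts of the other libraries taken as exact. The 95% counting interval, which also covers the 14 counts of TMZ600, puts the ratio of TMZ600 to EA20TMZ580 at 3.03 or more. A transcript without a gene name, XR_002958530.1, was singled out after its values were seen because its p was the lowest after that of SOX4. It was counted 252, 287 and 291 times in the controls, 103 in TMZ600 and 15 in EA20TMZ580 (log2 fold change -2.64 ± 0.35 SE, edgeR adjusted p = 4.29e-07).

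**Figure D2:**
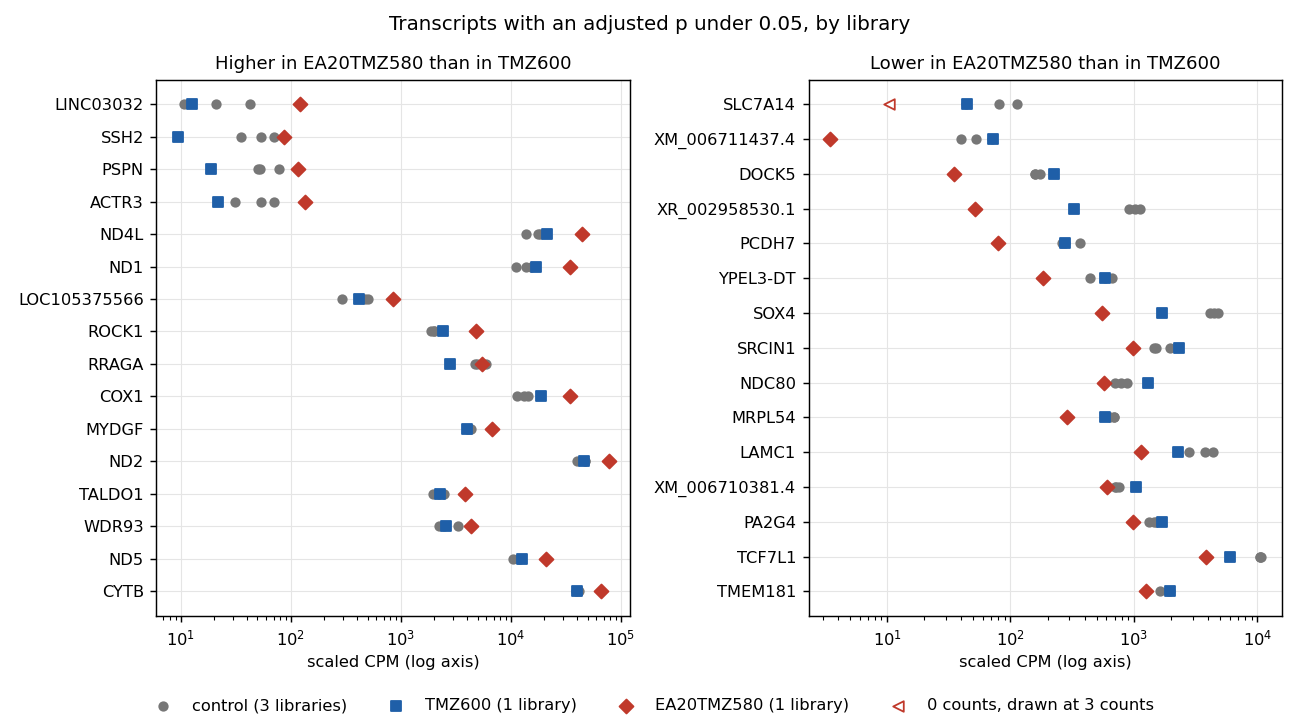
Scaled CPM (log axis) of the 31 called transcripts in the 3 controls (grey circles), TMZ600 (blue squares) and EA20TMZ580 (red diamonds), with those higher in EA20TMZ580 on the left and those lower on the right; the open triangle is SLC7A14, with 0 counts, drawn at 3 counts. On the right, TMZ600 lies above all controls for NDC80, SRCIN1, DOCK5 and PA2G4 and below them for SOX4, LAMC1 and TCF7L1.

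Among the nuclear transcripts called higher, ROCK1 had the lowest p. It encodes a kinase that acts below RHOA and drives actomyosin contraction (chr18:20946906-21111813). The controls stood at 2024, 1999 and 1891 scaled CPM, TMZ600 at 2427 and EA20TMZ580 at 4838. Both treated libraries were above every control, and EA20TMZ580 was above TMZ600 by a factor of 1.99 (log2 fold change 1.00 ± 0.17 SE, edgeR adjusted p = 5.7e-05). Against the controls, EA20TMZ580 differed by 1.30 on the log2 scale, while TMZ600 at 0.30 did not pass (edgeR adjusted p = 0.198). ROCK1 has a related pseudogene on the same chromosome, and how reads shared with it were counted is not given in the sources used here.

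RRAGA, a Rag GTPase that brings mTORC1 to the lysosome when amino acids are present (chr9:19049427-19051025), showed another order. It stood at 4761, 5914 and 4953 scaled CPM in the controls, 5454 in EA20TMZ580 and 2778 in TMZ600. EA20TMZ580 lay within the controls and TMZ600 below them. EA20TMZ580 was above TMZ600 by a factor of 1.96 (log2 fold change 0.97 ± 0.17 SE, edgeR adjusted p = 9.2e-05). Against the controls the log2 fold changes were 0.07 in EA20TMZ580 (edgeR adjusted p = 0.772) and -0.91 in TMZ600 (edgeR adjusted p = 7.04e-06). It was the only one of the 31 with EA20TMZ580 inside the range of the controls. With EA20TMZ580 inside and TMZ600 below it, 33 of all tested transcripts (5.31%) had the same order.

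MYDGF encodes a secreted growth factor first described in bone marrow cells, and TALDO1 encodes transaldolase of the pentose phosphate pathway. MYDGF was called on 1 of its 2 transcripts. MYDGF was at 4002, 4389 and 4118 scaled CPM in the controls, 3966 in TMZ600 and 6815 in EA20TMZ580, higher by a factor of 1.72 (edgeR adjusted p = 0.000947). TALDO1 was at 2451, 2238 and 1947 in the controls, 2275 in TMZ600 and 3837 in EA20TMZ580, higher by a factor of 1.69 (edgeR adjusted p = 0.00396). For both genes TMZ600 was close to the controls (log2 fold changes -0.07 and 0.04), and EA20TMZ580 was above every control. TALDO1 was the only tested member of a list of 26 targets of NRF2, the factor that switches on antioxidant genes, and 3 members had any count.

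The largest fold changes upwards were those of transcripts with few counts. ACTR3, a subunit of the ARP2/3 complex that nucleates actin filaments, was counted 39 times in EA20TMZ580, 7 in TMZ600 and 15, 18 and 9 in the controls, on 1 of its 3 transcripts. SSH2, a phosphatase that activates the actin-severing protein cofilin, was counted 25 times in EA20TMZ580, 3 in TMZ600 and 15, 18 and 10 in the controls, on 1 of its 11 transcripts. The secreted neurotrophic factor PSPN was counted 34 and 6 times, and the noncoding RNA LINC03032 35 and 4 times. LINC03032 had 3, 11 and 6 counts in the controls, so it reached a mean of 10 only through EA20TMZ580. Its ratio and p-value below are thus fixed in part by the filter and lend no support. In ACTR3, SSH2 and PSPN the library of TMZ600 was below every control and EA20TMZ580 above every control, an order found in 25 of all tested transcripts (4.03%).

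With so few counts the ratios were wide. The ratio of EA20TMZ580 to TMZ600 had a 95% counting interval of 2.70 to 16.2 for ACTR3, 2.58 to 18.1 for PSPN, 2.79 to 47.3 for SSH2 and 3.43 to 37.1 for LINC03032. Their adjusted p-values in edgeR were 0.0355, 0.0355, 0.0485 and 0.0454. Without control 2 they rose to 0.0558, 0.0654, 0.0807 and 0.0558, and that of SSH2 was 0.0502 without control 3. None of the 4 passed in limma-voom, where the adjusted p-values were 0.0942, 0.126, 0.159 and 0.107, or without a filter on low counts. The other 2 nuclear transcripts called higher were WDR93 (1261 counts in EA20TMZ580, 824 in TMZ600, on 1 of 13 transcripts) and the noncoding LOC105375566 (247 and 133 counts, on 1 of 8). Neither passed in the Wald test of DESeq2 (adjusted p = 0.0801 and 0.198) or with a mean of at least 50 counts (edgeR adjusted p = 0.085 and 0.0778), and LOC105375566 did not without a filter (edgeR adjusted p = 0.0594).

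The mitochondrial genome encodes 13 proteins of the respiratory chain and ATP synthase, and its transcripts took a large share of the counts in every library. Their share was 48.6, 48.4 and 49.1% in the controls, 51.7% in TMZ600 (95% Wilson interval 51.5 to 51.8) and 58.7% in EA20TMZ580 (58.6 to 58.9). EA20TMZ580 was 7.07 percentage points above TMZ600, while the controls spanned 0.666 points. In the other libraries with EA, whose names give each agent's dose in µM, the share was 58.2% (EA30), 54.8% (EA45), 57.4% (EA20TMZ380) and 54.9% (EA35TMZ320). The intervals cover counting error only, and the share has no replicate in either treatment.

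Of the 13 mitochondrial genes, 6 were higher in EA20TMZ580 than in TMZ600 and none was lower, where 2.58% and 2.42% of all tested transcripts were. The 6 are themselves among the 16 that make up the 2.58%. Most of the 13 lie among the highest levels, where a change is called more easily, so the shares are unlike in power. The median log2 fold change of the 13 was 0.48, against -0.03 over all tested. The largest changes were those of ND4L and ND1, subunits of complex I. ND4L stood at 13708, 18369 and 17691 scaled CPM in the controls, 21359 in TMZ600 and 44477 in EA20TMZ580, higher than in TMZ600 by a factor of 2.08 (log2 fold change 1.06 ± 0.17 SE, edgeR adjusted p = 1.52e-05). ND1 was higher by a factor of 2.05 (edgeR adjusted p = 2.24e-05), COX1 of complex IV by 1.85 (edgeR adjusted p = 0.000103), ND2 by 1.69, ND5 by 1.65 and CYTB of complex III by 1.62.

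The fold changes were unequal among the mitochondrial genes, from 1.06 for ND4L (95% interval 0.72 to 1.39) to -0.23 for ATP8 (-0.55 to 0.09). ND4L and ND4 lie on one transcript and overlap at chrMT:10470-10766 and chrMT:10760-12137, yet ND4 had a log2 fold change of 0.48 (edgeR adjusted p = 0.0531, and 0.0237 when mitochondrial transcripts were left out before scaling, with 6 of 10 alternatives past the test). ATP8 and ATP6, which also share a transcript, had -0.23 and 0.27 on the log2 scale. COX3, the most abundant with 122854 scaled CPM in TMZ600 and 142400.0 in EA20TMZ580, had 0.21 (95% interval -0.08 to 0.50), and ND3 had -0.13 (-0.44 to 0.17). COX2 had 0.28 and ND6, the one gene on the light strand among them, 0.23, neither of which passed.

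**Figure D3:**
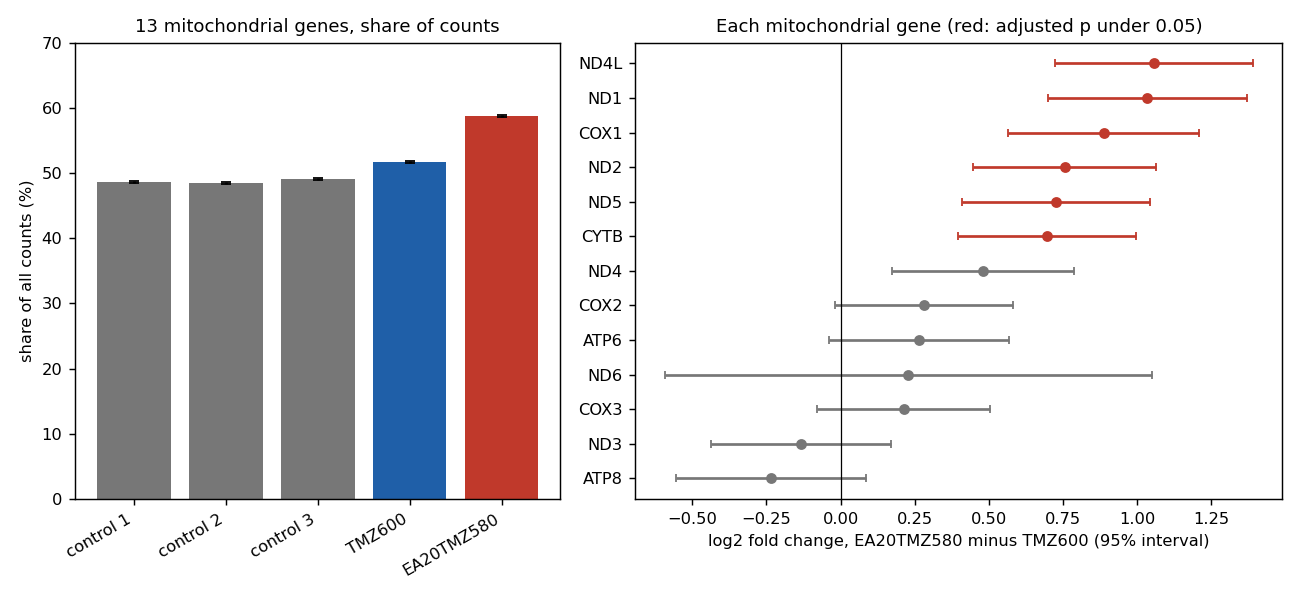
Left, share of all counts on the 13 mitochondrial genes in each library (bars, with 95% Wilson intervals); right, log2 fold change of EA20TMZ580 over TMZ600 for each gene with its 95% interval from the edgeR fit. The share is 58.7% in EA20TMZ580 against 51.7% in TMZ600 and 48.4 to 49.1% in the controls, and the 6 genes in red passed the test.

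Of 82 nuclear genes of oxidative phosphorylation, 3 could be tested and none passed, where 4.99% of all tested transcripts did. Their log2 fold changes were -0.59 (ATP5F1D), -0.07 (NDUFS6) and -0.02 (UQCR11). These are too few genes to set against the mitochondrial ones. The 3 tested genes of the cytosolic ribosome, RPS6, RPLP2 and RPL37, had -0.06, 0.06 and 0.04 and did not pass. Since scaling is relative, a larger mitochondrial share lowers every other share of a library. When mitochondrial transcripts were left out before scaling, the median over all tested transcripts moved by 0.016 on the log2 scale and all 31 calls were among the 32 then made.

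The lists of genes that EA or TMZ might touch held few measurable members, where 4.99% of all tested transcripts passed. All were drawn up with earlier results of these data known. Of 40 genes listed for the repair of alkylated DNA and of the breaks that follow, 2 could be tested and neither passed: ALKBH3, which removes methyl groups from bases, at 0.50 (197 scaled CPM in EA20TMZ580, 139 in TMZ600), and TDP2, which removes topoisomerase from DNA ends, at 0.40 (322 and 243). For mitosis, NDC80 was lower and PLK1, the other tested gene of 42, was at -0.04. The tubulins TUBB6 (-0.17) and TUBB2B (-0.45) did not pass, with both treated libraries below all controls. Of 31 interferon-induced genes, 4 could be tested and none passed: BST2 at 0.58, RIGI at 0.08, IFITM2 at -0.02 and IFITM1 at -0.40. Against the controls, IFITM1 was at -1.44 in EA20TMZ580 and -1.04 in TMZ600, and IFITM2 was at -0.57 and -0.55. BST2 was at 0.69 and 0.11 there, and RIGI at 0.24 and 0.16.

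Further tested members did not pass in the main test either, although some had large estimates. TNFSF9, a ligand of the tumour necrosis factor family, was counted 152 times in EA20TMZ580, 78 in TMZ600 and 27, 50 and 48 in the controls (log2 fold change 1.09 ± 0.44 SE, edgeR adjusted p = 0.161). It did pass in limma-voom (adjusted p = 0.0226) and with all 9 libraries in the fit (edgeR adjusted p = 0.0231). Its relative CD70, also on the list of NF-kB targets, was at 0.21 and -0.29 on its 2 tested transcripts. MIR210HG, the host of the hypoxia-induced miR-210, was counted 7 and 24 times against 160 to 203 in the controls (-1.63 ± 0.54 SE, edgeR adjusted p = 0.0722). NES, an intermediate filament of neural progenitors and the one marker of the cell line with enough counts to test, was counted 20 and 54 times against 152 to 174 (-1.30 ± 0.41 SE, edgeR adjusted p = 0.0529, and 0.042 without control 1). No gene of the lists for p53 targets, ER stress and ATF4 targets, the proteasome or cholesterol synthesis could be tested.

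Against the controls, 148 transcripts passed in EA20TMZ580 (23.8%, 67 higher or 10.8%, and 81 lower or 13%) and 70 in TMZ600 (11.3%, 31 higher and 39 lower, or 4.99% and 6.28%). These comparisons share the 3 controls, and the difference between the counts was not tested. Without control 2 the count for TMZ600 was 41. EA20TMZ580 lay outside the range of the controls for 456 of the tested transcripts (73.4%) and TMZ600 for 399 (64.3%). Of the 16 transcripts called higher in EA20TMZ580 than in TMZ600, 5 were above all controls in both treated libraries, 6 were above them in EA20TMZ580 alone with TMZ600 within, 4 were above in EA20TMZ580 and below in TMZ600, and 1 was RRAGA. Of the 15 called lower, 5 were below all controls in both, 4 below in EA20TMZ580 with TMZ600 within, and 6 below in EA20TMZ580 and above in TMZ600.

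The libraries of cells given EA without TMZ allow a look at the same transcripts with no library entering both differences. EA doses were higher there, at 30 µM (EA30) and 45 µM (EA45). Of the 31 transcripts, 28 had the same direction in EA30 against the controls as in EA20TMZ580 against TMZ600, and 17 of these passed the test for EA30. Of all tested transcripts, 9.34% passed as higher in EA30 and 8.21% as lower. Over all 621 tested transcripts, 374 (60.2%) had the same direction. Across transcripts, which share libraries and are not independent replicates, Pearson's r was 0.75 over the 31 and 0.32 over the 621 with EA30, and 0.51 and 0.27 with EA45. The 31 were chosen for a large difference between EA20TMZ580 and TMZ600. Neither their counts by direction or by test nor their r can thus be read against the values over the 621. The same limit holds for the counts with EA45 and EA20TMZ380 below.

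By gene, the log2 fold changes of EA30 against the controls were -1.81 for SOX4, -1.31 for NDC80, -1.01 for SRCIN1, -1.83 for DOCK5 and -1.40 for PCDH7. Upwards they were 1.23 for ROCK1, 0.66 for RRAGA, 0.70 for MYDGF, 1.15 for TALDO1 and 2.04 for ACTR3. All of these passed in EA30. LAMC1 (-0.19), TCF7L1 (-0.12), YPEL3-DT (-0.41) and MRPL54 (-0.14) did not, and WDR93 (-0.19), PA2G4 (0.15) and XM_006711437.4 had the opposite sign. The 6 called mitochondrial genes were all above the controls in EA30, and 5 of them passed.

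In EA45, in which 19.5% of the tested transcripts passed as higher and 19.6% as lower, 27 of the 31 had the same direction (58.8% of all tested transcripts did) and 20 of these passed, while YPEL3-DT (0.66) and WDR93 (-0.94) passed in the opposite direction. SOX4 was at -3.08 against the controls in EA45, NDC80 at -3.02 and TALDO1 at 1.48. Of the other 2 combinations in the series, EA35TMZ320 differs in both doses and was not compared here. The one with the same EA dose, EA20TMZ380 (EA at 20 µM with TMZ at 380 µM), had the same direction for 28 of the 31 (58.5% of all tested) and 15 of these passed, against 11.3% higher and 13.4% lower of all tested. There, SOX4 was at -2.52, ROCK1 at 1.27 and ND4L at 1.94 against the controls, whereas NDC80 (-0.27) and SRCIN1 (-0.39) did not pass.

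**Figure D4:**
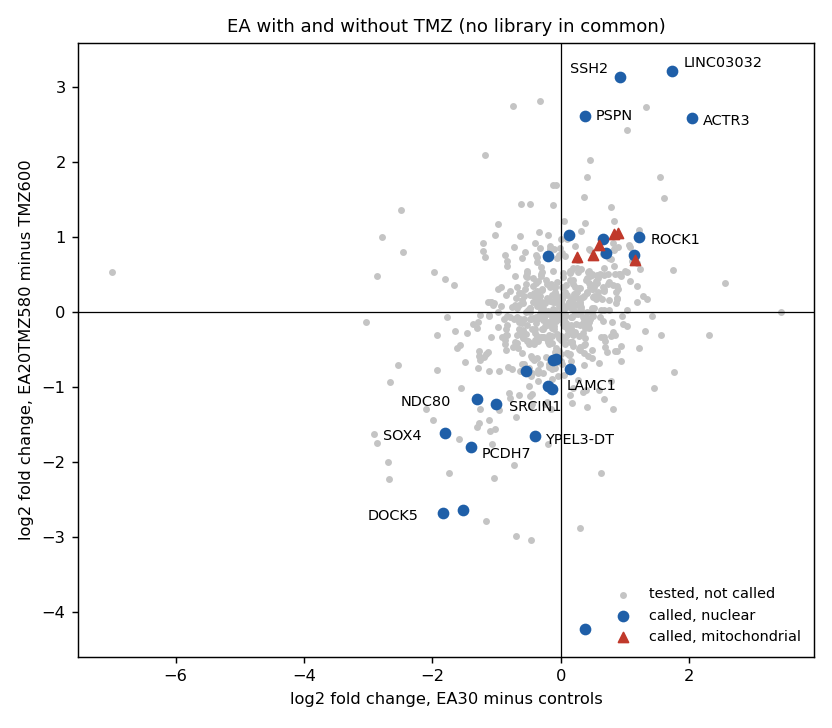
Log2 fold change of EA20TMZ580 over TMZ600 (vertical) against that of EA30 over the 3 controls (horizontal) for 618 of the 621 tested transcripts; the 3 with 0 counts in EA20TMZ580, TMZ600 or EA30 are not drawn. Of the 30 called transcripts drawn, SOX4, DOCK5, PCDH7, NDC80 and SRCIN1 lie at lower left, SLC7A14 is among those not drawn, and the 6 called mitochondrial genes (triangles) lie at upper right.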

How the data were processed

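The authors made 3′ end libraries from U-87 RNA and deposited 1 table of whole-number counts per RefSeq transcript, not normalised. The submitters' processing notes name HISAT2, HTSeq and hg38, and their settings are not given in the sources used here. RefSeq's GRCh38.p14 annotation supplied symbols and positions: 57755 transcripts matched with their version, 56301 without it and 45011, holding 4.63% of all counts, did not match.

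From the deposited counts, the 3 controls, EA20TMZ580 and TMZ600 were fitted together in edgeR 4.0.16 (R 4.3.3) with TMM normalisation, 1 coefficient per condition and quasi-likelihood F-tests, for transcripts averaging 10 counts or more. The adjustment was that of Benjamini and Hochberg over all 621, with a threshold of 0.05, two-sided. The spread rests on 2 residual degrees of freedom per transcript and 44.5 prior ones, so that it comes mostly from all transcripts together, and the biological coefficient of variation was 0.17. Pairs of controls differed by more than counting noise, with chi-square per degree of freedom of 3.59 to 5.84, so each was kept as 1 sample. EA30, EA45 and EA20TMZ380 were compared with the controls in 1 fit over all 9 libraries. The fits were tested on simulated data. Motifs were searched in the 250 bases before each start.

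By rule, the named genes were the 12 largest changes and the 6 lowest p in each direction among called nuclear transcripts with a symbol, which took in all 10 higher and 12 lower ones, and every tested member of lists with fewer than 15, the 13 mitochondrial genes included. The members and lists were chosen with earlier results of these data known. Alternatives were DESeq2's size factors, the Wald test of DESeq2 1.42.0, limma-voom (limma 3.58.1), other filters, all 9 libraries, scaling without mitochondrial transcripts, a minimum fold and each control left out in turn. Tables and plots were made with Python 3.11.15, pandas 2.3.3 and matplotlib 3.10.9.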

Additional observations from a re-analysis of the deposited data

How the results depend on the processing

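No paired analysis was possible because each treatment has 1 library and the numbers of the controls pair nothing. Of the 31 calls between EA20TMZ580 and TMZ600, 29 were kept with DESeq2's size factors, 26 with limma-voom (of 30), 22 without a filter (of 23), 30 with all 9 libraries (of 34) and all 31 with mitochondrial transcripts left out of the scaling (of 32). The DESeq2 Wald test called 10 higher and 6 lower, all shared. Of the rest, 7 did not pass there (LAMC1, PA2G4, WDR93, MRPL54, XM_006710381.4, LOC105375566 and TMEM181) and 8 were given no adjusted p. A mean of at least 50 counts left 10 higher and 8 lower, and a log2 fold change of at least 1 left 7 higher and 10 lower. Against the controls, the Wald test called 72 in EA20TMZ580 and 33 in TMZ600, and a log2 fold change of at least 1 left 84 and 36. Leaving out each control in turn gave 12 to 24 higher and 10 to 21 lower, and 109 to 158 calls against the controls in EA20TMZ580 and 41 to 79 in TMZ600, lowest each time without control 2. That setting ended the calls of TCF7L1, PA2G4, XM_006710381.4, SLC7A14, XM_006711437.4, ACTR3, PSPN, TMEM181, LINC03032 and SSH2. Fewer transcripts or samples enter under these filters, and the cause of the other differences was not tested.

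The mitochondrial share over tested transcripts alone was 59.5% in EA20TMZ580 and 52.6% in TMZ600. Estimates near 0 changed sign with a mean of at least 50 counts: PLK1 (0.0017), IFITM2 (0.015), UQCR11 (0.020) and WNT5A (0.023). WNT5A also did so with mitochondrial transcripts left out of the scaling (0.00038). Every other named transcript kept its direction. Depth limits the low transcripts: 6 of the 31 calls had under 50 counts in both treated libraries.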

Other observations

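HDGFL3, singled out after its values were seen, was counted 295 times in control 2 and 0 times in controls 1 and 3, with 4 counts in EA20TMZ580 and 3 in TMZ600. The cause of the high count in control 2 was not tested.

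Among transcripts outside the lists that met the rule of size but not the test, and named here after their values were seen, LAMA1, the alpha-1 chain of laminin, was counted 50 times in EA20TMZ580, 19 in TMZ600 and 16, 17 and 22 in the controls (edgeR adjusted p = 0.104). SEC22B, a SNARE protein of transport from the endoplasmic reticulum, was counted 31 and 5 times against 8, 7 and 11 (edgeR adjusted p = 0.074). It did pass with all 9 libraries in the fit and without control 1. However, SEC22B met the filter on mean counts only through EA20TMZ580. Its p-values are thus fixed in part by that filter and lend no support. PRDX2, a peroxiredoxin that breaks down hydrogen peroxide, was counted 2 and 17 times against 26, 13 and 13 (edgeR adjusted p = 0.139).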
